A study of Mus musculus with 17 samples.

Results

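Upk1b, Upk3b, Msln, Lrrn4, Gpm6a, Pkhd1l1, Crb2, Ezr, Podxl and Lrp2 encode proteins of the cell surface, of its cytoskeletal lining or, for mesothelin, of the surface and the fluid around it, and all are used as markers of mesothelial or other polarised epithelial cells. The 10 genes, out of 37576 gene IDs in the deposited tables, were selected on their levels in all 7 groups of these data, which were known when the list was made. Their levels and folds over +/+ are therefore given below as a description, with no test. The cells were mouse embryonic fibroblasts (MEFs) from C57bl/6 embryos of stage E13.5, in which the deubiquitinase gene Usp28 was intact on both alleles (+/+), on 1 (+/−) or on none (−/−). All cells carried pRetroSuper-shp19ARF, a retroviral short hairpin RNA against p19ARF that immortalizes MEFs. The immortalized set has 3 libraries for each genotype and nothing further. A second set, the Ras set, holds 4 groups of 2 libraries that also received pBabe-HRasG12V, an activated HRas: +/+, +/− and −/− with the control vector pWZL-GFP, and +/+ with pWZL-USP28. The labels do not say from how many embryos or cultures the libraries of a group came, nor whether the Ras cells came from the same cultures as the immortalized ones.

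Mesothelium is the single-layered epithelium that covers the body cavities and the organs in them. It arises from mesoderm, combines keratins with transcription factors such as Wt1, and carries microvilli and a glycoprotein coat on its free surface. Among the 10 proteins, uroplakins 1b and 3b, mesothelin, Lrrn4, Gpm6a and Pkhd1l1 are surface proteins. Crb2 sets apical polarity, ezrin and podocalyxin build microvilli, and megalin (Lrp2) is an endocytic receptor. In the deposited tables Upk1b is ENSMUSG00000049436 on chromosome 16, Upk3b is ENSMUSG00000042985 on chromosome 5, Msln is ENSMUSG00000063011 on chromosome 17 and Lrrn4 is ENSMUSG00000043110 on chromosome 2. Gpm6a is ENSMUSG00000031517 on chromosome 8, Pkhd1l1 is ENSMUSG00000038725 on chromosome 15 and Crb2 is ENSMUSG00000035403 on chromosome 2. Ezr is ENSMUSG00000052397 on chromosome 17, Podxl is ENSMUSG00000025608 on chromosome 6 and Lrp2 is ENSMUSG00000027070 on chromosome 2.

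RefSeq promoters (GRCm38.p6, 250 bases before to 50 after the start) were at hand for 6 of the 10 genes, Lrrn4, Upk3b, Gpm6a, Ezr, Crb2 and Lrp2, with 2 for Gpm6a. Upk1b, Msln, Pkhd1l1 and Podxl are named only. The 4 promoters below are shown because they hold a TEAD or an AP-1 motif. Capitals mark GGAATG, the core letters of TEAD factors, or CATTCC, the same letters on the opposite strand, in Lrrn4, Upk3b and Gpm6a, and TGANTCA, the AP-1 motif, in Ezr.
Lrrn4, chr2:132880813-132881112, minus strand: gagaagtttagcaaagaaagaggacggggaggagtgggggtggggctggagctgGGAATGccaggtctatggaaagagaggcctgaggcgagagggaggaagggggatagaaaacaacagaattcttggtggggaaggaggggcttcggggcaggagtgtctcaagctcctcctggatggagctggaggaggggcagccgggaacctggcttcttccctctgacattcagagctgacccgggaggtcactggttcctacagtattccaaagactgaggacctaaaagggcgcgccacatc
Upk3b, chr5:136038246-136038545, plus strand: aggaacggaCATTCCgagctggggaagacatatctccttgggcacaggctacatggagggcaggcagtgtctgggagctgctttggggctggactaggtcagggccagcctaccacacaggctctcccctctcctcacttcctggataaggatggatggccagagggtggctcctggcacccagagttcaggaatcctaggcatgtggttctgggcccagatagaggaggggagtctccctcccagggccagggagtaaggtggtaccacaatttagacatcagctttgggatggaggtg
Gpm6a, chr8:54779184-54779483, plus strand: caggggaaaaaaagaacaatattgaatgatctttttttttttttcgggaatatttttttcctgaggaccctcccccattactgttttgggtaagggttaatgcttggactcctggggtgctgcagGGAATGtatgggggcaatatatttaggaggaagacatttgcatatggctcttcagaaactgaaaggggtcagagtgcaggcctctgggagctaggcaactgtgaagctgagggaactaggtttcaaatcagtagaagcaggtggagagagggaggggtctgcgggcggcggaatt
Ezr, chr17:6782731-6783030, minus strand: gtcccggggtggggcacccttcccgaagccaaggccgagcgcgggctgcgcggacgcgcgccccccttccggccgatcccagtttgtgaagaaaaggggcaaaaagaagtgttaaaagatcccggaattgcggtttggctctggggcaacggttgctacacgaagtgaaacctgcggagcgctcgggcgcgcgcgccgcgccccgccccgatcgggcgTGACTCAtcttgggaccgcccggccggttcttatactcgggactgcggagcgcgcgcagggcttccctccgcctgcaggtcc

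The TEAD letters, searched on both strands, stood in 3 of the 7 promoters, and 14.7% of all 32851 promoters of the same length hold them. The AP-1 letters stood only in the Ezr promoter among these 7, against 7.81% of all promoters, and they read the same on both strands. GGGCGG, the motif of SP and KLF factors, stood in the promoters of Crb2, Ezr, Lrp2 and the Gpm6a promoter printed here, against 35.7% of all. GCGTGGGNG, the motif of WT1 and EGR factors, and the E-box CACGTG were in none of the 7, and 1.90% and 7.15% of all promoters hold them. TATAAA stood in the other Gpm6a promoter, against 13.6% of all. No matches of different motifs overlapped in the 7 promoters, and a match is a description of letters, not of binding.

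All 10 genes were higher in the immortalized +/− group than in +/+, and 9 of the 10, all but Msln, were higher in the Ras +/− group than in Ras +/+. Summed over the 10 genes, the level was 72.2 RPM (reads per 1000000 reads) in immortalized +/+, 2312 in +/− and 99.8 in −/−. In the Ras set the sum was 612 RPM in +/+, 2800.1 in +/−, 68.2 in −/− and 657 with USP28. Most of the Ras +/+ and USP28 sums came from Msln and Ezr. Each level is that of a whole group, since the deposited tables compare groups and give no value for a single library. In such bulk RNA, fewer cells of a type and less RNA per cell cannot be told apart.

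By the rule applied to all genes (a mean level of at least 1 RPM and the deposited p-value, Benjamini-Hochberg adjusted here, under 0.05), 10 of the 10 were called higher and 0 lower in immortalized +/−, where 5.04% of all tested genes were called higher, 3.21% lower and 8.25% in all. In Ras +/−, 9 were called higher and 1 lower, where 17.5% of genes were higher, 16.7% lower and 34.1% in all. All 10 passed the level filter in these comparisons. In each set 7 of them were under 1 RPM in +/+, so these passed through the +/− group. In immortalized −/−, 6 of the 10 passed the filter, with 3 called higher and 1 lower, where 1.29% of genes were higher, 2.93% lower and 4.21% in all. In Ras −/−, 3 passed, with 0 called higher and 3 lower, where 15.2% were higher, 12.4% lower and 27.6% in all. With USP28, 3 passed, with 0 called higher and 1 lower, where 0.0907% were higher, 0.997% lower and 1.09% in all. Because the levels chose the genes, nothing is read from these counts.

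**Figure D1:**
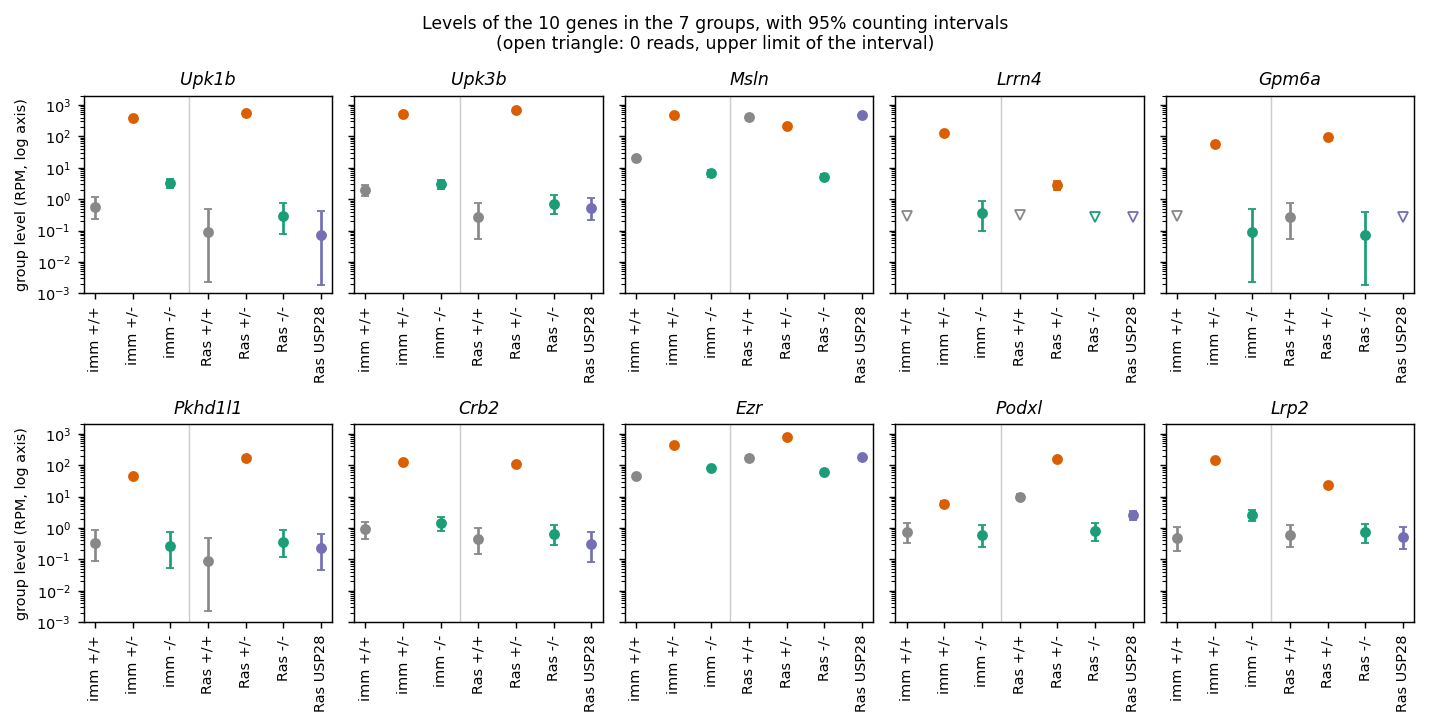
Level of each of the 10 genes in the 7 groups, in RPM on a log axis, with 95% intervals for counting error only; the grey line separates the immortalized from the Ras set, and open triangles are upper limits where no read was seen. The +/− groups (orange) stand highest in every panel of the immortalized set and in every Ras panel except Msln, where Ras +/+ at 425 RPM and USP28 at 466 RPM stand above Ras +/− at 209 RPM.

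Upk1b, a tetraspanin that pairs with uroplakin 3 proteins at the surface of urothelium and mesothelium, had a level of 0.568 RPM in immortalized +/+, 383 in +/− and 3.22 in −/−. With activated HRas it was 0.0878 RPM in +/+, 557 in +/−, 0.287 in −/− and 0.0745 with USP28. Only the +/− groups were high: immortalized +/− was 9.40 log2 units above +/+ (implied SE 0.65) and −/− was 2.50 above it (SE 0.63). Ras +/+ had 1 read, so the Ras +/− fold of 12.63 log2 units carries a 95% counting interval of 10.15 to 17.93.

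Upk3b, a single-pass uroplakin that is a common marker of mesothelium, was also highest in the +/− groups. Its level was 1.95 RPM in immortalized +/+, 508 in +/− and 2.96 in −/−, and in the Ras set 0.264 in +/+, 677 in +/−, 0.717 in −/− and 0.521 with USP28. The +/− fold was 8.03 log2 units (SE 0.49) in the immortalized set and 11.33 (counting interval 9.78 to 13.60) in the Ras set. Immortalized −/− was 0.60 log2 units above +/+ with an SE of 0.46, a difference of the size of its error. Of the other uroplakins, Upk2 had no read in any group, Upk3a at most 1 read, and Upk1a stayed between 0.441 and 1.67 RPM.

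Msln, the precursor of mesothelin and of a secreted factor, was the only member whose +/− fold had opposite signs in the 2 sets. Its level was 20.9 RPM in immortalized +/+, 476 in +/− and 6.62 in −/−. The Ras groups gave 425 RPM in +/+, 209 in +/−, 5.09 in −/− and 466 with USP28. Ras +/− was thus below Ras +/+, where immortalized +/− was above its own +/+, and both −/− groups were the lowest of their sets. The folds over +/+ were 4.49 log2 units (SE 0.40) in immortalized +/− and −1.02 (SE 0.21) in Ras +/−. For −/− they were −1.66 (SE 0.31) in the immortalized set and −6.38 (SE 0.27) in the Ras set. USP28 differed from Ras +/+ by 0.13 log2 units with an SE of 0.18, less than its error. The next gene, Mslnl, lies 0.283 kb away and was at 0.0813 to 1.49 RPM in all groups.

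Lrrn4, a leucine-rich repeat protein of a family named after neurons and a known marker of mesothelium, had no read in immortalized +/+, 128 RPM in +/− and 0.352 RPM in −/−. With activated HRas it was at 2.79 RPM in +/− and had no read in the other 3 groups. It was at least 525-fold higher in immortalized +/− and at least 10.6-fold higher in Ras +/− than in +/+, both against 3 reads summed over the +/+ group. Its level in immortalized +/− was 46.0 times that in Ras +/−.

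Gpm6a, a proteolipid best known from neurites, had no read in immortalized +/+, 56.3 RPM in +/− and 0.0878 in −/−, which is 1 read. In the Ras set it was at 0.263 RPM in +/+, 94.2 in +/− and 0.0717 in −/−, with no read in USP28. It was at least 231-fold higher in immortalized +/−, and 8.49 log2 units higher in Ras +/− (counting interval 6.93 to 10.76). Of 5 neural markers, Elavl3 stayed at or under 0.176 RPM and Sox10 at or under 0.163 RPM in every group, while Tubb3 was at 11.8 to 49.2 RPM and rose from 21.3 to 49.2 RPM in Ras +/− (adjusted p = 1.93e-06). The part of neural cells in the Gpm6a level was not tested.

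Pkhd1l1, a very large relative of the fibrocystin of kidney cilia, was at 0.324 RPM in immortalized +/+, 45.5 in +/− and 0.264 in −/−. The Ras groups held 0.0882 RPM in +/+, 170 in +/−, 0.358 in −/− and 0.223 with USP28. Its +/− fold was 7.14 log2 units (SE 0.79) in the immortalized set and 10.92 (counting interval 8.44 to 16.23) in the Ras set. The other 5 groups held 1 to 5 reads each and their counting intervals overlapped.

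Crb2, the Crumbs protein that recruits the apical polarity complex, was at 0.897 RPM in immortalized +/+, 129 in +/− and 1.41 in −/−. Its Ras levels were 0.441 RPM in +/+, 108 in +/−, 0.645 in −/− and 0.298 with USP28. Of the 10 genes it had the most even +/− level between the sets, a ratio of 1.19, with folds of 7.16 log2 units (SE 0.58) and 7.94 (SE 0.65). Crb2 overlaps its neighbour Dennd1a by 0.112 kb, and the counting strand is not given in the sources used here. Dennd1a itself was at 22.1 to 40.1 RPM in the 7 groups and was lower in Ras +/− (−0.80 log2 units, SE 0.23, adjusted p = 0.00259 from the deposited p-values).

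Ezr encodes ezrin, which ties surface proteins to the actin core of microvilli, and it was the only member at 46.3 RPM or more in every group. Its level was 46.3 RPM in immortalized +/+, 432 in +/− and 81.7 in −/−, and in the Ras set 176 in +/+, 803 in +/−, 59.5 in −/− and 187 with USP28. The +/− folds were 3.22 log2 units (SE 0.39) and 2.19 (SE 0.21). The −/− folds had opposite signs, 0.82 (SE 0.26) in the immortalized set and −1.56 (SE 0.22) in the Ras set. USP28 was 0.09 log2 units from Ras +/+ with an SE of 0.19.

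Podxl, the sialomucin podocalyxin that binds ezrin through its scaffold Slc9a3r1, had the lowest level of the 10 genes in immortalized +/− but not in Ras +/−. It was at 0.740 RPM in immortalized +/+, 5.79 in +/− and 0.614 in −/−, and in the Ras set at 9.67 in +/+, 156 in +/−, 0.788 in −/− and 2.53 with USP28. The +/− folds were 2.95 log2 units (SE 0.63) and 4.01 (SE 0.25). Podxl was also the member that stood furthest from Ras +/+ in the USP28 group, at −1.93 log2 units (SE 0.34), and in Ras −/− it was at −3.62 (SE 0.49). Its Ras +/− level was 26.9 times its immortalized +/− level.

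Lrp2, or megalin, takes up ligands at the apical face of kidney tubule and other epithelia. Its level was 0.486 RPM in immortalized +/+, 148 in +/− and 2.58 in −/−, and in the Ras set 0.616 in +/+, 23.1 in +/−, 0.717 in −/− and 0.522 with USP28. The folds were 8.26 log2 units (SE 0.69) in immortalized +/−, 5.23 (SE 0.57) in Ras +/− and 2.41 (SE 0.67) in immortalized −/−. Like Lrrn4, it was higher in immortalized than in Ras +/−, by 6.40 times.

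**Figure D2:**
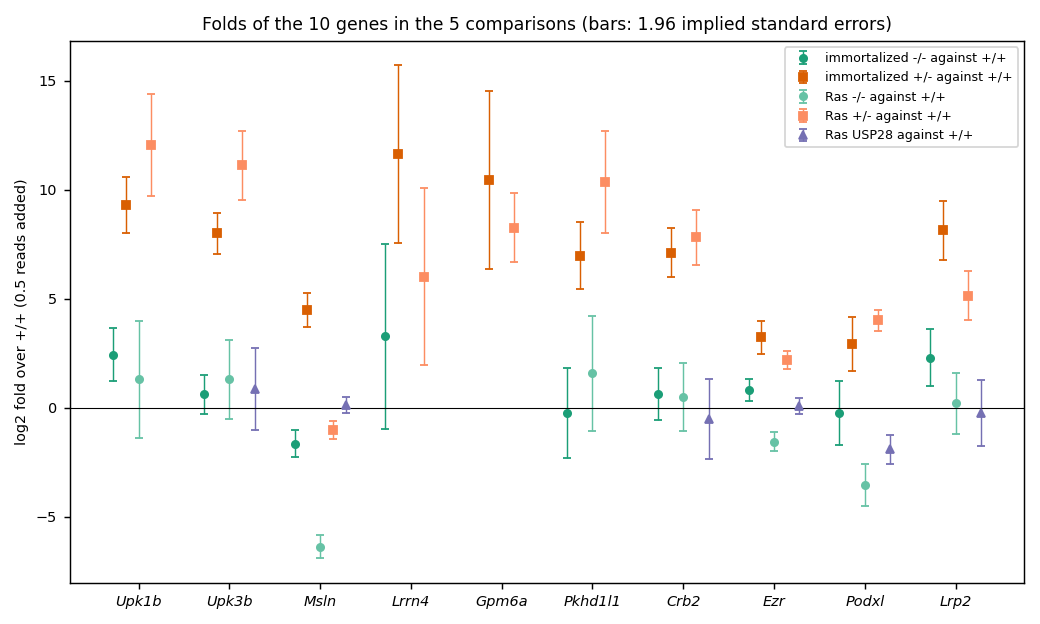
Log2 fold of each gene over +/+ of its own set in the 5 comparisons, with 0.5 reads added to both groups and bars that span 95% intervals from the implied SE; points with 3 reads or fewer in both groups are left out. Folds against a group with no read (Lrrn4 in 3 comparisons and Gpm6a in immortalized +/−) depend on the reads added and are no bounds. The +/− squares lie above 0 for every gene except Msln in the Ras set, at −1.02.

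Per kilobase of exon, the scale on which genes can be compared, the order within immortalized +/− was Msln at 218 RPM per kb, Upk1b at 202, Upk3b at 144 and Ezr at 137, then Lrrn4 at 34.5, Crb2 at 20.2, Gpm6a at 17.5, Lrp2 at 8.94, Pkhd1l1 at 3.51 and Podxl at 1.08. In Ras +/− it was Upk1b at 294, Ezr at 254, Upk3b at 192 and Msln at 95.9, then Gpm6a at 29.3, Podxl at 28.9, Crb2 at 17.0, Pkhd1l1 at 13.2, Lrp2 at 1.40 and Lrrn4 at 0.751. The uroplakins, ezrin and mesothelin were the top 4 in both. The step from the fourth to the fifth gene was 137 to 34.5 and 95.9 to 29.3 RPM per kb. Podxl and Lrrn4 changed places most. The tables were normalized separately, and for +/− the median absolute log2 difference between them over all genes was 0.50, so no level was tested between sets.

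**Figure D3:**
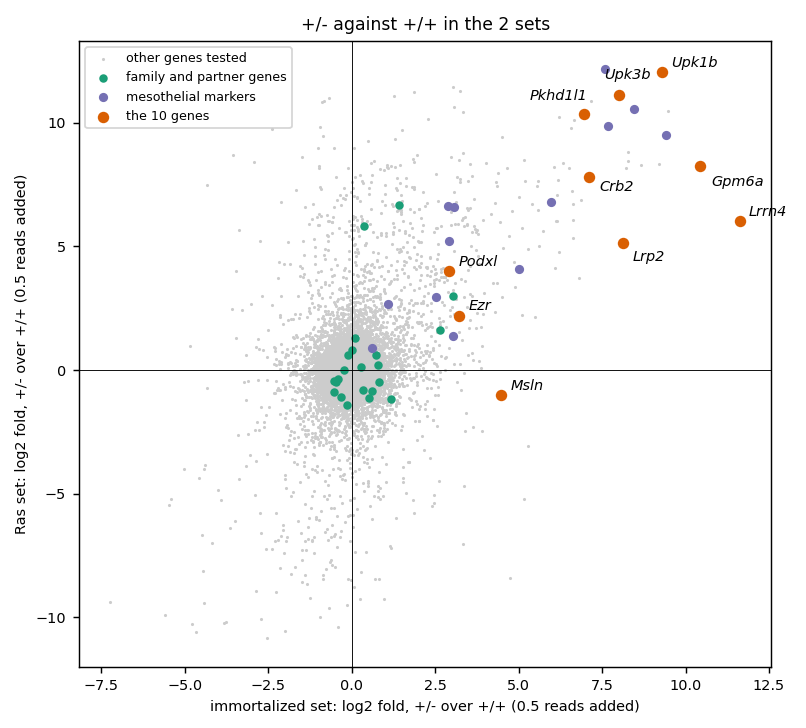
Log2 fold of +/− over +/+ in the immortalized set (horizontal) and in the Ras set (vertical), with 0.5 reads added, for all genes tested in both; the 10 genes are orange, other mesothelial markers purple and family and partner genes green. Msln lies in the lower right (4.49 and −1.02) and the other 9 in the upper right; folds against a group with no read depend on the reads added.

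Other mesothelial genes were high in the same groups. From a list of 16 markers that holds none of the 10 genes, 14 were tested in immortalized +/−. There 12 rose and 0 fell (deposited p-values, adjusted over all genes), where 5.04% of all genes rose and 3.21% fell. The markers had a median of 4.05 log2 units against −0.0048 for all genes tested. Bnc1, a zinc finger factor of mesothelium, rose from 0.0812 to 82.8 RPM (1 read in +/+). Wt1, the defining transcription factor, rose from 0.243 to 58.3 RPM, and Krt8, a keratin of simple epithelia, from 0.163 to 71.8 RPM. Aldh1a2, the retinoic acid enzyme of embryonic mesothelium, rose from 0.243 to 41.9 RPM there but was at 0.0880 and 0.529 RPM in Ras +/+ and +/−. In Ras +/−, 13 of the 16 were tested, 12 rose and 0 fell, where 17.5% of all genes rose and 16.7% fell. The median there was 6.58 log2 units against 0.0093 for all genes. Of the genes tested, 8 of 14 in the immortalized and 9 of 13 in the Ras set were under 1 RPM in +/+. They passed the level filter through the +/− group alone, and the list was chosen with earlier results of these data known. The counts, medians and levels of these markers are therefore descriptions. Krt18, the partner of Krt8, went from no read to 202 RPM in Ras +/− (at least 764-fold).

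Outside the +/− groups, Krt19 was at 44.8 to 85.4 RPM except in Ras −/− (0.215 RPM), and Tbx18 at 26.9 to 35.6 RPM. In immortalized −/−, 5 were tested and 2 fell, Rspo1 (−1.82 log2 units, adjusted p = 0.00365) and Gata6 (−1.81, adjusted p = 1.27e-05). Of all genes, 1.29% rose and 2.93% fell there. Ras −/− held a mixed set of 6 tested: Slpi rose from 0.354 to 54.1 RPM and Gata4 from 0.177 to 17.6 RPM, while Krt19, Krt7 and Gata6 fell. In that group 15.2% of all genes rose and 12.4% fell. With USP28, 0 of 4 were called, by the deposited edgeR p-values adjusted here and by those the authors adjusted, and 1 had an unadjusted p under 0.05. The share of all genes called with USP28 was 1.09%. Summed over the 16 genes, the level was 102, 678 and 109 RPM in immortalized +/+, +/− and −/−, and 130, 1763, 117 and 143 RPM in Ras +/+, +/−, −/− and USP28. Calb2 and Itln1, defining markers of adult mesothelium, had at most 1 read in every group.

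The +/− groups also expressed fibroblast genes. In immortalized +/−, 3 of 10 fell and 0 rose, where 3.21% of all genes fell and 5.04% rose. In Ras +/−, 4 of 7 tested fell and 1 rose, where 16.7% of all genes fell and 17.5% rose. The summed level of 10 fibroblast markers was 26153 RPM in immortalized +/− against 32922 in +/+, and 8669 in Ras +/− against 7345 in +/+, with Col1a1, the main fibroblast collagen, at 17267 and 7146 RPM in the +/− groups and most of each sum. Of the other members, Lum, Postn and Thy1 had no read in Ras +/−, with at most 0.529 RPM in Ras +/+, and Pdgfrb fell from 54.9 to 7.06 RPM (adjusted p = 1.86e-28). Twist1, Col1a2 and Col3a1 also fell in Ras +/−, to 19.5, 1157.5 and 199 RPM, and Dcn rose from 0.354 to 118 RPM. Dcn passed the level filter through the +/− group alone, so its rise is a description. Epcam, which marks most epithelia but not mesothelium, was at or under 0.263 RPM everywhere. The epithelial Cdh1 was at 5.22 RPM in immortalized +/+ and 5.73 in +/−, and rose from 0.352 to 2.65 RPM in Ras +/−. Of the urothelial genes, Grhl3 rose from 0.264 to 3.40 RPM in Ras +/− and Gata3 fell from 30.6 to 14.8 RPM. Cdh1 and Grhl3 passed the level filter there through the +/− group alone. In immortalized +/− neither Cdh1 nor Gata3 was called. Of the kidney tubule genes, Umod and Slc22a6 had no read in any group and Slc34a1 was at or under 0.149 RPM. Slc5a2 was at 8.02 to 13.6 RPM in the 7 groups. Aqp1 was at 0.302 RPM in Ras +/− and at 104 to 720 RPM in the other groups. Among podocyte genes, Nphs1 was at 97.5 to 127 RPM in the 7 groups. Plce1 was at 82.1 RPM in immortalized +/− against 145 in +/+ (adjusted p = 0.259) and rose from 57.7 to 239 RPM in Ras +/− (adjusted p = 2.73e-19), where Synpo rose from 3.91 to 94.9 RPM (adjusted p = 3.53e-56). The part of such cells in the levels of the 10 genes was not tested.

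**Figure D4:**
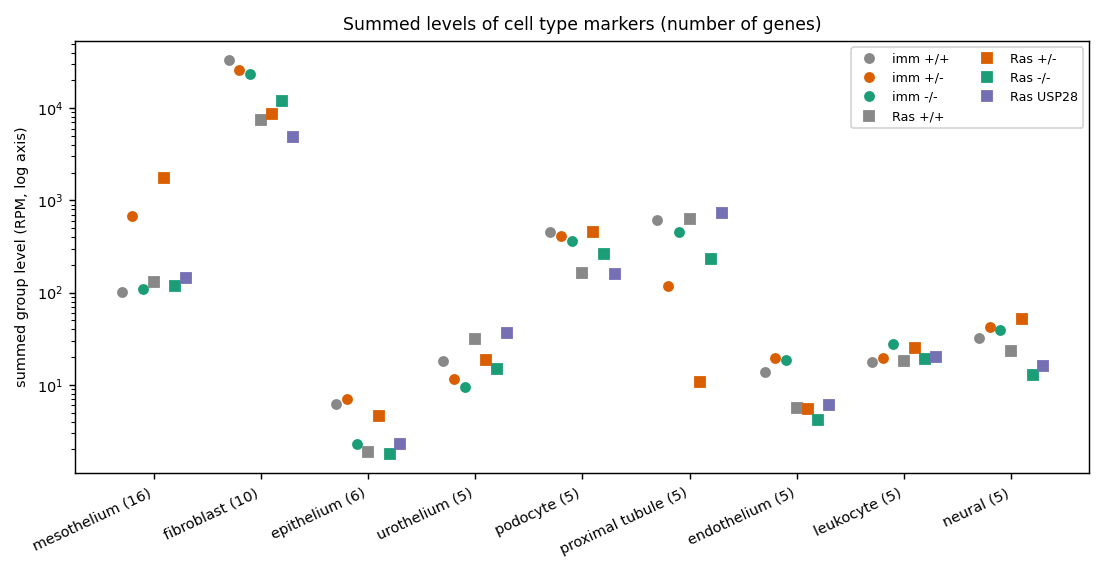
Summed level of each marker list in the 7 groups, in RPM on a log axis, with the number of genes in each list. The mesothelial sum is highest in Ras +/− (1763 RPM) and immortalized +/− (678 RPM) and lies between 102 and 143 RPM in the other 5 groups.

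Other features moved with the groups. Xist, expressed from the inactive X chromosome, was at 89.7, 296 and 126 RPM in immortalized +/+, +/− and −/−, and at 336, 25.5, 0.215 and 323 RPM in Ras +/+, +/−, −/− and USP28. The Y-linked Eif2s3y was at 18.6, 0 and 14.9 RPM, and at 0, 0.151, 22.4 and 0.0745 RPM, in the same orders. The part of the sex of the cells in the 10 genes' levels was not tested. Usp28 RNA was at 16.5, 9.96 and 13.3 RPM and at 26.5, 18.6, 14.8 and 26.4 RPM, so −/− cells still held transcript and its level does not check the labels. The depth summed over a group was 11.4 M to 13.95 M reads (M, 1000000). The spread between libraries implied by the deposited p-values was 32.9% (coefficient of variation) in the immortalized +/− comparison, 21.2% in −/−, and 12.6% to 14.5% in the Ras set.

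Family members and partners of the 10 proteins changed in both directions. Of 36 listed genes, 26 were tested in immortalized +/−, where 4 rose and 2 fell, 23.1% of those tested against 8.25% of all genes, with a median of 0.19 log2 units against −0.0048 for all genes. In Ras +/−, 25 were tested, 8 rose and 6 fell, 56.0% against 34.1% of all genes, with a median of −0.36 against 0.0093. In immortalized −/−, 0 rose and 4 fell of 25, 16% against 4.21% of all genes, with 5 higher and 6 lower at an unadjusted p under 0.05. In Ras −/−, 4 rose and 7 fell of 26, 42.3% against 27.6% of all genes. Of the genes that rose, 1 in immortalized +/−, 1 in Ras +/− and 3 in Ras −/− were under 1 RPM in +/+. They passed the level filter through the other group alone, and the list was chosen with earlier results of these data known. The counts are therefore descriptions. With USP28, 0 of 24 were called by the deposited edgeR p-values, adjusted here or by the authors, and 1 had an unadjusted p under 0.05. Of all genes, 1.09% were called with USP28.

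The gene of the scaffold Slc9a3r1, which links podocalyxin to ezrin, rose in both +/− groups. Its level went from 18.5 to 150 RPM in immortalized +/− (3.03 log2 units, SE 0.40, adjusted p = 4.71e-11 from the deposited p-values) and from 39.5 to 314 RPM in Ras +/− (2.99, SE 0.22, adjusted p = 2.60e-37). The ezrin paralogues did not pass the test in either +/− comparison: Rdx, encoding radixin, was at 28.6 and 49.0 RPM per kb in the +/− groups against 38.3 and 63.0 in +/+, and Msn, encoding moesin, at 317 and 226 against 179 and 312. Ezrin was at 137 and 254 RPM per kb against 14.6 and 55.5, so it went from the lowest of the 3 paralogues to second behind moesin in the immortalized set and to first in the Ras set, an order that was not tested. Cd34, a sialomucin related to podocalyxin, rose by 1.40 log2 units in immortalized +/− (adjusted p = 0.00773) and from 1.06 to 112 RPM in Ras +/− (6.72, adjusted p = 3.27e-81).

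**Figure D5:**
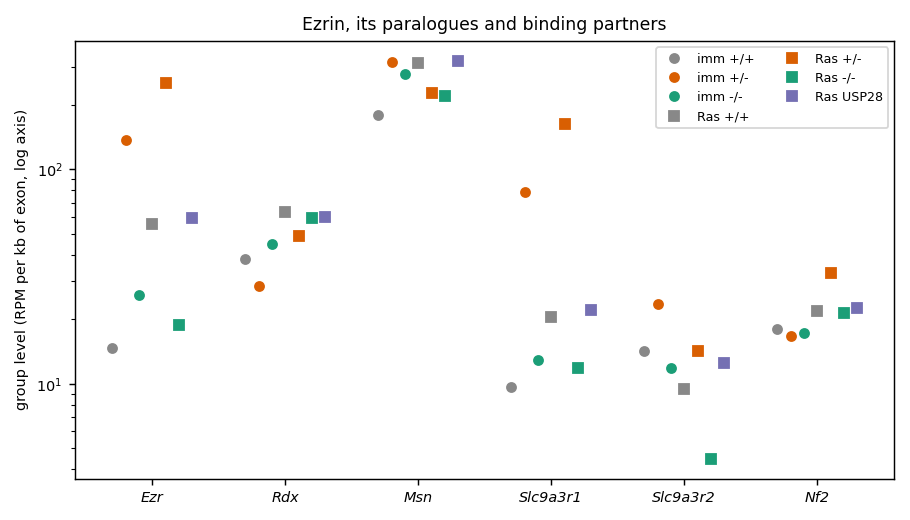
Levels of ezrin, its paralogues radixin and moesin, and 3 binding partners in the 7 groups, in RPM per kilobase of exon on a log axis. Ezr and Slc9a3r1 are highest in the +/− groups (137 and 78.2 in the immortalized set, 254 and 163 in the Ras set), while Rdx stays between 28.6 and 63.0 in all 7 groups.

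Among polarity genes, Pard6b, a subunit of the complex that Crumbs proteins recruit, rose in both +/− groups, from 5.91 to 37.0 RPM (adjusted p = 7.18e-08) and from 23.1 to 70.8 RPM (adjusted p = 2.94e-11). In Ras −/− it was lower, at 4.44 RPM. The complex's kinase Prkci fell in Ras +/− (−1.42 log2 units, adjusted p = 4.27e-10), and so did Pard3 (−1.09) and Inadl (−1.12), a scaffold gene of the Crumbs complex. Crb1 and Crb3, the other Crumbs genes, were at or under 0.788 RPM in every group. Among the relatives of the leucine-rich and proteolipid members, Lrrn3 fell by 4.04 log2 units in immortalized +/− (adjusted p = 2.80e-13) and Gpm6b fell by 2.89 (adjusted p = 8.25e-09), where Lrrn4 and Gpm6a were high. Both also fell in immortalized −/− (−2.20 and −2.41 log2 units), where Lrrn4 and Gpm6a were at 0.352 and 0.0878 RPM. In Ras −/− both were higher, Lrrn3 from 1.48 to 12.6 RPM and Gpm6b from 0.265 to 5.81 RPM. Gpm6b passed the level filter there through the −/− group alone. Lrrn2 went from no read to 2.54 RPM in immortalized +/−, at least 10.4-fold. Pkhd1 stayed between 2.72 and 4.83 RPM.

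Among receptors and adaptors of the megalin family, Vldlr went from 0.265 to 17.5 RPM in Ras +/− (3 reads in +/+). It passed the level filter through the +/− group alone, so its change is a description. The adaptor gene Dab2 (0.79 log2 units) rose there too. Cubn, which encodes the megalin partner cubilin, fell in Ras +/− from 10.7 to 4.70 RPM (adjusted p = 6.05e-04), and Lrp1 (−0.83) and Lrp8 (−0.91) fell as well. In immortalized +/− none of these 5 genes was called. The other cubilin partner, Amn, was at or under 0.378 RPM in every group.

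The genes that lie beside the 10 on the chromosomes were examined as positional context. Of 20 neighbours, 11 were tested in immortalized +/−, with 1 higher and 1 lower, where 5.04% of all genes were higher and 3.21% lower. In Ras +/−, 13 were tested, with 4 higher and 6 lower, where 17.5% of all genes were higher and 16.7% lower. B4galt4, a galactosyltransferase gene 4.14 kb from Upk1b, rose in both, from 15.9 to 47.4 RPM (adjusted p = 0.00214) and from 9.46 to 52.4 RPM (adjusted p = 5.43e-21). Dhrs9, 19.8 kb from Lrp2, fell in both, from 34.6 to 14.9 RPM (adjusted p = 0.0339) and from 27.1 to 12.7 RPM (adjusted p = 6.34e-05).

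For each of the 10 genes, the genes with the most similar pattern were found among 14348 genes by the root mean square difference of centred log2 levels over the 7 groups. Ezr had the closest matches, Igsf9 at 0.19 log2 units, Fam84b at 0.20 and Pde3b at 0.27. Pkhd1l1 lay nearest to Krt16 at 0.38 and Upk3b at 0.42, and Crb2 to Krt42 and Sprr1a, both at 0.44. Upk1b lay nearest to Krt18 at 0.69 and Krt8 at 0.70. Upk3b, after Pkhd1l1, lay nearest to Myrf at 0.43 and Krt18 at 0.44. Gpm6a lay nearest to Foxa2 at 0.71, Lrp2 to Scel at 0.57 and Podxl to Loxl2 at 0.60. Msln, with its high Ras +/+ level, lay nearest to Ankrd1 at 0.73 and Col4a6 at 0.84, and Lrrn4 had the loosest match, Lrp2 at 1.03. Likeness over 7 group values that share their libraries is a description only.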

How the data were processed

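Libraries were poly(A)-selected and prepared with either of 2 NEBNext kits, per the labels' protocols, which do not tie a kit to a library. Per the submitters' processing notes, reads were aligned to mm9 with Bowtie 0.12.8 after CASAVA and FastQC, and groups were compared with edgeR. The authors deposited, for each comparison with +/+, a log2 concentration, a log2 ratio with +/+ in the numerator, and a p-value. Group levels (RPM) were rebuilt from the deposited log2 values, and ratios turned to the other group over +/+.

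Steps of 1 read at low values gave each group's depth. A single dispersion per comparison, fitted to the deposited p-values, gave implied SE. These p-values were Benjamini-Hochberg adjusted over the genes whose mean level reached 1 RPM. They measure the spread between libraries, which may be technical. The Ras table's own adjusted p-values were an alternative. Against 0 reads a bound uses 3 reads over the group, and with 1 to 3 reads a 95% exact counting interval is given. Intervals and bounds cover counting error only.

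The difference of a genotype's fold over +/+ between the sets (Ras minus immortalized) was tested by a Wald test on log2 folds with 0.5 reads added, adjusted over all genes. The code was tested on simulated data. The 10 genes and all lists were chosen with earlier results of these data known. Named were all 10 genes, list genes that passed the test or define a list, neighbours called in both +/− comparisons, and the nearest genes by pattern. A test on counts of single libraries could not be run on these tables. Gene symbols came from GENCODE M21, by Ensembl ID, and promoters from RefSeq (GRCm38.p6). Of 36 family and partner genes 35 were found. Some list genes are not reported here by name.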

Additional observations from a re-analysis of the deposited data

Results flagged for a closer look

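The log2 fold of +/− over +/+ differed between the Ras and the immortalized set for 9 of 35 list genes tested. Of all 15211 genes, 12.9% differed (Wald test of that difference, Benjamini-Hochberg adjusted over all genes). The Y-linked Eif2s3y was at 18.6 RPM in immortalized +/+ and 0 in Ras +/+. The +/+ cells thus differed in Y-linked RNA as well as in HRas, and the part of each cannot be told apart. The difference, Ras minus immortalized, was positive for Vldlr (5.47 log2 units), Cd34 (5.27, adjusted p = 1.08e-15), Slpi (3.75) and Krt19 (1.61, adjusted p = 0.00466). Vldlr and Slpi passed the level filter in the Ras set through Ras +/− alone, so their differences are descriptions. It was negative for Cubn (−2.35, adjusted p = 8.44e-04), Inadl (−1.63, adjusted p = 0.00616), Lrp1 (−1.44, adjusted p = 0.0123), Msn (−1.29, adjusted p = 0.0300) and Prkci (−1.27, adjusted p = 0.0367).

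The log2 fold of −/− over +/+ differed for 12 of 28 list genes tested, where 20.6% of all 15068 genes differed. The same limit of the +/+ cells applies. The difference was positive for Gpm6b (6.64 log2 units), Podxl2 (5.38), Lrrn3 (5.22, adjusted p = 9.06e-21) and Vldlr (4.86). Gpm6b, Podxl2 and Vldlr passed the level filter in the Ras set through Ras −/− alone, so their differences are descriptions. Ras +/+ held 1 read of Podxl2 and 3 reads each of Gpm6b and Vldlr, and Ras −/− 3 reads of Krt19, so the sizes of these 4 depend on the 0.5 reads added. The difference was negative for the keratins Krt19 (−8.74, adjusted p = 5.97e-23) and Krt7 (−2.90, adjusted p = 1.31e-06), and for Pard6b (−3.19, adjusted p = 2.03e-11). It was also negative for Cubn (−2.03, adjusted p = 4.77e-04), Inadl (−1.88, adjusted p = 6.49e-06), Slc9a3r1 (−1.20, adjusted p = 0.00800), Msn (−1.15, adjusted p = 0.00372) and Lin7c (−0.887, adjusted p = 0.0468). With both dispersions doubled, an alternative chosen after seeing the data, 4 of the 9 and 9 of the 12 remained called. Krt19, Msn, Prkci, Lrp1 and Inadl were lost for +/−, and Slc9a3r1, Lin7c and Msn for −/−. The 10 genes themselves got no such test.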

How the results depend on the processing

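The 42 folds of the 10 genes kept their direction and stayed within their 95% counting intervals with 0.5 or 2 reads added and with folds centred on the median gene. They moved by over 1.5 times in 1 case with 0.5 reads added (Upk1b in Ras +/−, from 12.63 to 12.04 log2 units) and in 9 with 2 reads added, the largest being Upk1b (to 11.04) and Pkhd1l1 (from 10.92 to 9.34) in Ras +/−. Of 15 counts of called genes (the 10 genes, the mesothelial markers and the family and partner genes in 5 comparisons), all stayed within 1.5 times under no level filter, an adjusted p under 0.01, a doubled dispersion, centring and, for the 9 counts of the Ras set, the authors' adjusted p-values. A mean level of at least 5 RPM moved 2 counts, both in immortalized −/−: the 10 genes went from 4 called to 2, without Upk1b and Lrp2, and the mesothelial markers from 2 to 1, without Rspo1. Ezr, of the 4, was not called there without the level filter, at 0.01, with the dispersion doubled or after centring. With the largest single difference in place of the root mean square, 1 of the 3 nearest genes of Podxl was shared. No paired analysis was possible because the tables hold no values of single libraries, and for the same reason no library could be left out. A group's single read was worth 0.0717 to 0.0880 RPM, and 3 reads, the floor used for bounds, 0.215 to 0.264 RPM.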

Other observations

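Aqp1, a water channel of kidney tubule that mesothelium and fibroblasts also express, was lower in both +/− groups than in +/+. Its level was 599 RPM in immortalized +/+, 104 in +/− and 443 in −/−, and in the Ras set 623 in +/+, 0.302 in +/−, 218 in −/− and 720 with USP28. The folds were −2.53 log2 units (SE 0.39, adjusted p = 1.98e-08 from the deposited p-values) and −11.01 (SE 0.71, adjusted p = 4.29e-165).

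Decorin (Dcn), a matrix proteoglycan of fibroblasts, was at 45.6, 94.7 and 6.21 RPM in immortalized +/+, +/− and −/−. In the Ras set it was at 0.354 RPM in +/+ and 0.819 with USP28, and rose to 118 RPM in +/− and 99.8 RPM in −/−. It passed the level filter in these comparisons through the +/− and −/− groups alone, so the rises are descriptions. Synpo, an actin-binding protein gene of podocytes, showed the same split in the Ras set, at 3.91 RPM in +/+, 2.98 with USP28, 94.9 in +/− (adjusted p = 3.53e-56) and 61.6 in −/− (adjusted p = 5.16e-41), but was at 145 to 202 RPM throughout the immortalized set.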
